A study of Mus musculus with 9 samples.

Results

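The genes of pyrimidine synthesis and uridine salvage were followed in RAW264.7 cells, a mouse macrophage line that forms osteoclast-like cells when stimulated with RANKL. The set holds 10 genes of the 56691 in the deposited table and was defined by gene symbol: Cad, Dhodh, Umps, Uck1, Uck2, Uckl1, Upp1, Cda, Cmpk1 and Ctps. RNA was sequenced from 3 groups of 3 libraries after 3 days of culture, namely untreated cells (control), cells given RANKL (RANKL), and cells given RANKL together with uridine (RANKL + UD). All 9 libraries come from the same cell line, the labels state no uridine dose, and uridine without RANKL was not analysed here. The submitters call the libraries of a group biological replicates without saying whether they came from separate cultures, so p-values measure the spread between these libraries, which may be technical. In such bulk RNA, fewer cells of a kind and less RNA per cell cannot be told apart.

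Cells obtain the pyrimidine nucleotide UMP either by building it from glutamine, bicarbonate and aspartate or by taking up and phosphorylating uridine. CAD carries out the first steps of the de novo route, DHODH oxidizes dihydroorotate at the mitochondrial inner membrane, and UMPS completes UMP. The uridine-cytidine kinases UCK1 and UCK2 make UMP and CMP from the nucleosides, UCKL1 is a related protein, UPP1 cleaves uridine to uracil, and CDA converts cytidine to uridine. CMPK1 then phosphorylates UMP and CMP, and CTPS makes CTP from UTP. RNA and DNA synthesis, nucleotide sugars and phospholipid precursors all draw on these pools, which is why the pathway is known for its link to proliferation.

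Promoter sequences from RefSeq (build GRCm38.p6, 250 bases before to 50 bases after the annotated start) were found for 9 of the 10 genes, 14 sequences in all, and none was found for Dhodh. They are shown for Cad, Umps and Uck2, 3 genes whose levels were higher with UD, and for Cmpk1, which did not pass the test. Capitals mark the GC box, searched as GGGCGG on both strands. It occurred in 11 of the 14 promoters, against 35.7% of all 32851 promoters of this length. Windows of the same gene overlap for Uck1, Uckl1 and Upp1, and the same GC box was counted again in Uckl1 and in Upp1. The 14 are therefore not separate promoters, and no share per gene was computed over all genes. The 14 promoters had a median GC content of 60.2%, beside 52.7% over all promoters. By gene, 8 of the 9 held the GC box, all but Uck1, so it did not separate the genes that moved from Cmpk1. The E-box CACGTG and the amino acid response element TGATGNAA occurred in 0 of these 14 promoters, against 7.15% and 3.97% of all promoters, and CCAAT occurred in Uck2 only, against 37.4%. These matches describe letters in the window and are not binding data. Sites more than 50 bases after the start were not searched. For the E-box and the amino acid response element, whose shares are low, 0 of 14 promoters says little.
Cad (chr5:31054530-31054829, plus strand): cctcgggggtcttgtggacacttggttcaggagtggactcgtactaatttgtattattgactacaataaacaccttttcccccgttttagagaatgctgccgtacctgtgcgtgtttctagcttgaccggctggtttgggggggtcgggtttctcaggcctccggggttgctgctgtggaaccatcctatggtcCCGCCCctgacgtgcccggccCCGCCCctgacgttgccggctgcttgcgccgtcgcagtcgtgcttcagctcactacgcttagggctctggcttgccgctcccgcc
Umps (chr16:33966989-33967288, minus strand): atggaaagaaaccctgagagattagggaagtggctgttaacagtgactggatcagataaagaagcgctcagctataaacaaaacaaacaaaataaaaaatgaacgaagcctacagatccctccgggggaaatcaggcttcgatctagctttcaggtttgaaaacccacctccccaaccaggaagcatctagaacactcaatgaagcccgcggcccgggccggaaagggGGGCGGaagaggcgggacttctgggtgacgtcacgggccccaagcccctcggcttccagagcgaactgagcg
Uck2 (chr1:167285078-167285377, minus strand): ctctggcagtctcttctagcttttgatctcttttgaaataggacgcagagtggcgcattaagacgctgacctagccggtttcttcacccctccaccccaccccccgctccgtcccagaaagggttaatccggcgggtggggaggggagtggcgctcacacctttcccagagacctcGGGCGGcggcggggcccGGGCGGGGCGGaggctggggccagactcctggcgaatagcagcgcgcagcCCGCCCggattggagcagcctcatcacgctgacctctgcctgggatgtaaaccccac
Cmpk1 (chr4:114987179-114987478, minus strand): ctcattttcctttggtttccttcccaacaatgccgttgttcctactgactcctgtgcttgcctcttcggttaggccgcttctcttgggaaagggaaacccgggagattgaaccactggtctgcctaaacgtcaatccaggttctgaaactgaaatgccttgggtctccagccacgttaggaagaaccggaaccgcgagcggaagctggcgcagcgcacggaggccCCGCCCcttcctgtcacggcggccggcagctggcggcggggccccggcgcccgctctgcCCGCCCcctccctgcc

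The 9 libraries held 15951800 to 19746862 counts each. Acp5 and Ctsk, osteoclast genes for TRAP and cathepsin K, were low in control, at a mean FPKM of 0.91 and 8.34. Their means were 410.6 and 1491 in RANKL libraries and 341.3 and 869.3 after UD was added, and those of Mmp9, a matrix metalloproteinase, were 0.43, 314.3 and 132.2. All 8 tested osteoclast markers were higher in RANKL than in control and lower in RANKL + UD than in RANKL. Itgb3 entered the test only through its RANKL libraries (FPKM 1.27 to 1.75), so the filter favoured both of its directions. Acp5, Mmp9 and Oscar entered only through libraries given RANKL, which favoured a rise over control. Of 8 macrophage markers, 7 were lower in RANKL than in control, and 5 were lower and 2 higher in RANKL + UD than in RANKL. Over all tested genes, 27.3% were higher and 30.2% lower in RANKL against control. In RANKL + UD against RANKL these shares were 18.6% and 20.2%. Of 12 markers of T cells, B cells, fibroblasts or osteoblasts, epithelial cells and neutrophils, 0 reached the level needed for testing, the highest FPKM was 0.33, their summed FPKM was 0.35 to 0.51 in control, 0.27 to 0.85 with RANKL and 0.19 to 0.43 with RANKL + UD, and Cd3e, Ly6g and Ms4a1 were listed at 0 in every library.

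FPKM, the deposited count of a gene divided by its exonic length and by the library total, allows levels to be compared between genes. Cmpk1 was the most abundant of the 10 genes in every group, followed by Uck2 and Ctps, and Dhodh was the lowest of the 8 genes that entered the test. In control the order was Cmpk1 (84.6 ± 0.920), Uck2 (52.4 ± 1.56), Ctps (30.9 ± 0.0666), Cad (12.0 ± 1.22), Umps (11.5 ± 0.317), Uck1 (5.95 ± 0.142), Uckl1 (4.52 ± 0.346), Dhodh (1.80 ± 0.132), Cda (0.53 ± 0.0458) and Upp1 (0.09 ± 0.01) (mean FPKM ± SD, n = 3). Cad and Umps were the only neighbours in this order whose control libraries overlapped. With RANKL and with RANKL + UD, Umps stood above Cad without overlap. Upp1 and Cda did not reach an FPKM of 1 in any library and were left out of the test, which covered the 11995 genes that reached an FPKM of 1 in 3 or more libraries. All 10 genes carry the KEGG annotation pyrimidine metabolism in the table.

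**Figure D1:**
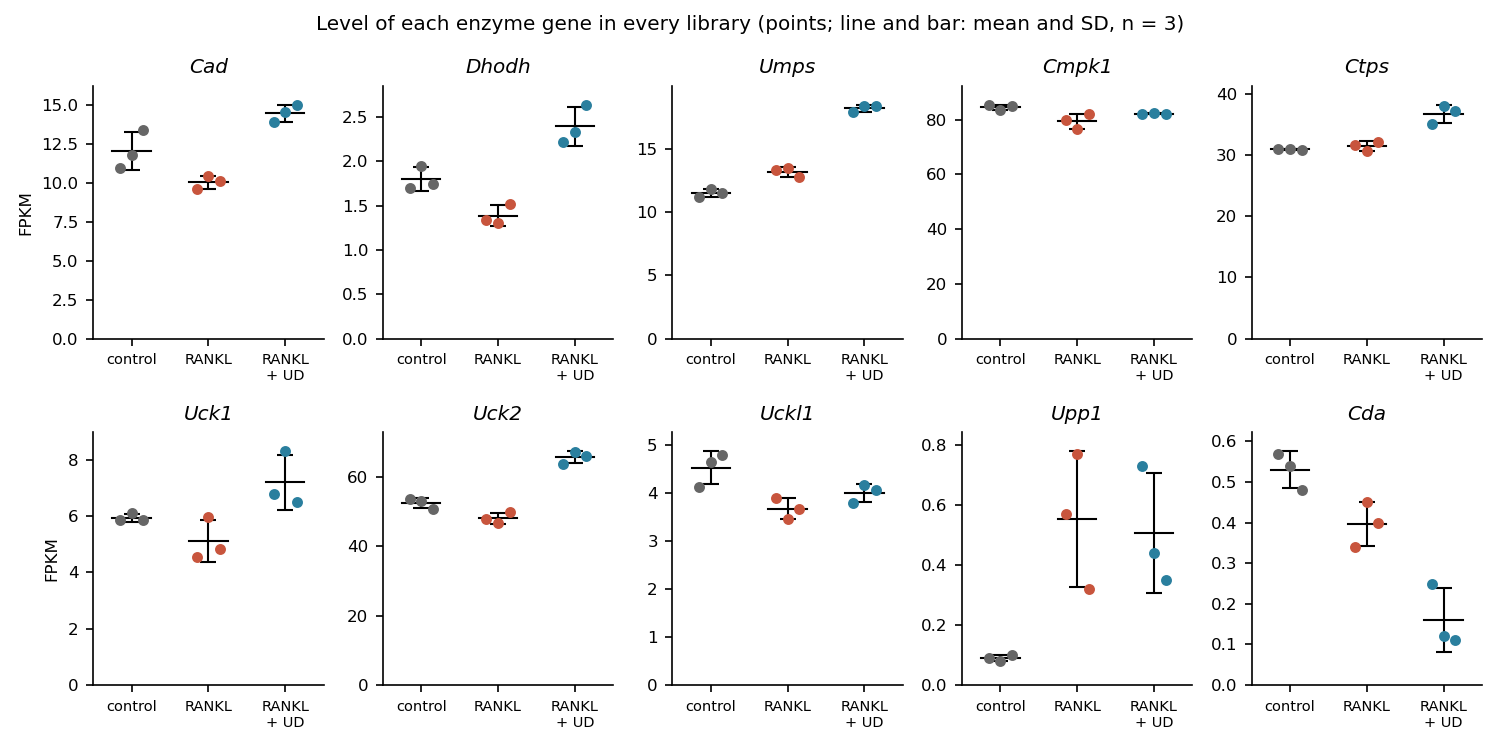
Points give the deposited FPKM of each gene in every library for control, RANKL and RANKL + UD, and the line and bar give the mean and SD of 3 libraries, each panel with its own axis from 0. The 3 RANKL + UD libraries lay above the 3 RANKL libraries for Cad, Dhodh, Umps, Uck1, Uck2 and Ctps, while Cmpk1, Uckl1 and Upp1 overlapped and Cda lay below.

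The de novo genes were all higher with RANKL + UD than with RANKL, and all were also higher than in control. Cad (ENSMUSG00000013629) lies on chromosome 5 at 31212124 to 31235823 and encodes the multifunctional enzyme at the head of the pathway. Its FPKM was 10.98, 11.78 and 13.38 in the control libraries, 9.59, 10.41 and 10.13 with RANKL, and 13.89, 14.53 and 14.99 with RANKL + UD. The RANKL libraries were the lowest and the RANKL + UD libraries the highest, with no overlap between any groups. UD raised it over RANKL by a log2 fold change of 0.44 (SE 0.0637, 95% interval 0.31 to 0.57, adjusted p = 1.26e-05), and the level exceeded control by 0.27 (adjusted p = 0.00127). The fall with RANKL was smaller, with a log2 fold change of -0.17 against control (SE 0.0642, adjusted p = 0.0251), and it missed the threshold without control replicate 3 (-0.09, adjusted p = 0.177), without RANKL replicate 1 (-0.14, adjusted p = 0.0989), in DESeq2 (-0.16, adjusted p = 0.0518) and with only the 6 libraries compared (-0.15, adjusted p = 0.0767), which are 4 of 17 alternatives.

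Dhodh (ENSMUSG00000031730, chromosome 8, 110317975 to 110335305), the mitochondrial step, had the largest fitted rise of the 8 tested genes between RANKL and RANKL + UD. Its FPKM was 1.70, 1.95 and 1.75 in control, 1.34, 1.30 and 1.52 with RANKL, and 2.22, 2.33 and 2.64 with RANKL + UD. These levels rest on 159 to 289 counts per library, and the groups did not overlap. The fitted log2 difference was 0.70 between RANKL + UD and RANKL (SE 0.123, 95% interval 0.44 to 0.96, adjusted p = 0.000117) and 0.41 between RANKL + UD and control (adjusted p = 0.0069). A larger rise was fitted for 4.64% of all tested genes. Between RANKL and control the difference was -0.29 (SE 0.126, adjusted p = 0.0562), and it passed the threshold in 4 of 17 alternatives. These were the fit without RANKL replicate 3 (-0.36, adjusted p = 0.0358), total counts, and limma on log2(FPKM + 1) and on log2(FPKM + 0.1).

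Umps (ENSMUSG00000022814, chromosome 16, 33775152 to 33787408), which encodes the enzyme that completes UMP, was the tested gene that rose at both steps. Its FPKM was 11.20, 11.83 and 11.46 in control, 13.28, 13.47 and 12.73 with RANKL, and 17.87, 18.35 and 18.36 with RANKL + UD. Each group lay wholly above the one before it. It rose on the log2 scale by 0.28 between RANKL and control (SE 0.064, adjusted p = 0.000752) and 0.38 between RANKL + UD and RANKL (SE 0.0622, 95% interval 0.25 to 0.51, adjusted p = 5.26e-05), which makes 0.66 between RANKL + UD and control (adjusted p = 1.34e-08). These 3 calls held in all 17 alternative settings. The gene Gm15829 overlaps Umps on the opposite strand over 800 bases, with an FPKM of at most 0.29 in any library.

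Among the uridine-cytidine kinases, the levels of Uck1 and Uck2 rose with UD and Uckl1 did not pass the test. Uck2 (ENSMUSG00000026558, chromosome 1, 167050452 to 167112889) was the main kinase transcript. Its FPKM was 53.59, 53.02 and 50.65 in control, 47.74, 46.60 and 49.81 with RANKL, and 63.73, 67.10 and 66.03 with RANKL + UD. The RANKL + UD libraries lay above all others, and the deposited FPKM of the RANKL libraries lay below control. The log2 fold change was 0.36 between RANKL + UD and RANKL (SE 0.0465, 95% interval 0.27 to 0.46, adjusted p = 2.76e-06) and 0.32 between RANKL + UD and control (adjusted p = 4.52e-06). Between RANKL and control it was -0.04 after TMM scaling (95% interval -0.14 to 0.06, adjusted p = 0.503), and with total counts in place of TMM it was -0.13 and passed the threshold (adjusted p = 0.0265). It also passed in limma on log2(FPKM + 1) and on log2(FPKM + 0.1), which makes 3 of 17 alternatives.

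Uck1 (ENSMUSG00000002550, chromosome 2, 32145014 to 32150171) was more variable between libraries than Uck2. Its FPKM was 5.87, 6.11 and 5.86 in control, 4.56, 5.98 and 4.85 with RANKL, and 6.79, 8.31 and 6.50 with RANKL + UD. All RANKL + UD libraries were above all RANKL libraries, and RANKL replicate 2 reached the control range. Against RANKL, the log2 fold change with UD was 0.40 (SE 0.118, 95% interval 0.16 to 0.65, adjusted p = 0.0101). It missed the threshold without RANKL replicate 1 (0.32, adjusted p = 0.0578) and without RANKL + UD replicate 2 (0.29, adjusted p = 0.0841). Between RANKL + UD and control it was 0.27 (adjusted p = 0.0551), and this difference passed in 5 of 17 alternatives. Among these were the fits without RANKL replicate 2 (adjusted p = 0.0414) or RANKL + UD replicate 3 (adjusted p = 0.0353), without an expression filter (adjusted p = 0.0431) and with only the 6 libraries compared (adjusted p = 0.0423). Between RANKL and control it was -0.13 (adjusted p = 0.383).

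Uckl1 (ENSMUSG00000089917, chromosome 2, 181210942 to 181226685) had an FPKM of 4.13, 4.64 and 4.79 in control, 3.89, 3.45 and 3.66 with RANKL, and 3.79, 4.16 and 4.05 with RANKL + UD. The RANKL + UD libraries overlapped both other groups. The log2 fold change was 0.04 between RANKL + UD and RANKL (SE 0.0984, 95% interval -0.17 to 0.24, adjusted p = 0.807) and -0.21 between RANKL and control (SE 0.0975, adjusted p = 0.0677). The latter passed in 4 of 17 alternatives. These were the fit without control replicate 1 (-0.27, adjusted p = 0.0397), total counts, and limma on log2(FPKM + 1) and on log2(FPKM + 0.1). Uckl1 is an uncertain readout, since it shares 2790 bases with Zfp512b on the same strand (FPKM 3.61 to 4.91) and 6413 bases with Uckl1os on the opposite strand (FPKM 0.24 to 0.66), and the counting rule for shared reads is not given in the sources used here. The summed FPKM of the 3 kinase genes was 61.3 to 63.8 in control, 56.0 to 58.3 with RANKL and 74.3 to 79.6 with RANKL + UD, and Uck2 supplied 82.6% to 86.2% of it over the 9 libraries.

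Downstream of UMP, Ctps rose modestly with UD and Cmpk1 did not pass the test. Cmpk1 (ENSMUSG00000028719, chromosome 4, 114816533 to 114844438) had an FPKM of 85.27, 83.53 and 84.92 in control, 79.77, 76.48 and 82.08 with RANKL, and 81.97, 82.33 and 82.09 with RANKL + UD. The RANKL + UD libraries fell within or just above the RANKL range. Against RANKL, the log2 difference with UD was -0.04 (SE 0.0451, 95% interval -0.13 to 0.06, adjusted p = 0.545), and its sign flipped to 0.05 with total counts. Between RANKL and control it was -0.003 (95% interval -0.10 to 0.09, adjusted p = 0.962), and its sign flipped to 0.01 with RLE size factors, while in limma on log2(FPKM + 1) it was -0.09 (adjusted p = 0.0488).

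Ctps (ENSMUSG00000028633, chromosome 4, 120397065 to 120427473) had an FPKM of 30.88, 30.99 and 30.87 in control, 31.63, 30.57 and 32.07 with RANKL, and 35.11, 37.97 and 37.10 with RANKL + UD. RANKL and control overlapped, and RANKL + UD lay above both. The log2 fold change was 0.25 between RANKL + UD and control (SE 0.0502, 95% interval 0.14 to 0.35, adjusted p = 0.000256) and 0.14 between RANKL + UD and RANKL (SE 0.0499, 95% interval 0.03 to 0.24, adjusted p = 0.0331). The latter call missed the threshold in 7 of 17 alternatives, among them DESeq2 (0.13, adjusted p = 0.0624), and the removal of RANKL replicate 1 (0.14, adjusted p = 0.0561), RANKL replicate 2 (0.12, adjusted p = 0.13), RANKL + UD replicate 2 (0.12, adjusted p = 0.133) or RANKL + UD replicate 3 (0.13, adjusted p = 0.0951). Between RANKL and control it was 0.11 (SE 0.0503, adjusted p = 0.0659), and this difference passed in DESeq2 (0.13, adjusted p = 0.0424) and with RLE size factors (0.13, adjusted p = 0.0359). The paralog Ctps2 had a mean FPKM of 11.6 ± 0.478 in control, 7.58 ± 0.273 after RANKL and 7.12 ± 0.273 after RANKL + UD (SD, n = 3 per group). It fell by 0.53 on the log2 scale between control and RANKL (adjusted p = 1.56e-06).

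Both nucleoside-converting genes, Upp1 and Cda, were close to the detection limit. Upp1 (ENSMUSG00000020407, chromosome 11, 9068103 to 9086170) had 3, 3 and 3 counts in control, 22, 29 and 12 with RANKL, and 28, 14 and 12 with RANKL + UD. Every library with RANKL was above every control library, and the 2 groups with RANKL overlapped. Per library total, the summed counts were 6.32 times those of control with RANKL (exact 95% interval 3.13 to 14.5) and 0.937 times those of RANKL with RANKL + UD (0.639 to 1.37). Intervals of this kind cover counting error only. In a fit of all 26736 genes with a count, the first of these differences had an adjusted p of 4.14e-05 and the other 0.884.

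Cda (ENSMUSG00000028755, chromosome 4, 138065735 to 138095303) had 10, 11 and 8 counts in control, 7, 9 and 8 with RANKL, and 5, 2 and 2 with RANKL + UD. The RANKL + UD libraries were the lowest in FPKM without overlap. The ratio of summed counts between RANKL + UD and RANKL was 0.41 (exact 95% interval 0.168 to 0.914, counting error only), and in the fit without an expression filter the difference had an adjusted p of 0.313. A change in Cda between these groups was therefore not detectable at this depth in that fit.

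Counted together, 6 of the 8 tested genes rose in RANKL + UD against RANKL (Cad, Dhodh, Umps, Uck1, Uck2 and Ctps), where 18.6% of all tested genes rose, and 0 fell, where 20.2% of all tested genes fell. The count of lower genes was also 0 at an unadjusted p under 0.05 in edgeR, and 0 in DESeq2 and in limma. The 3 libraries of RANKL + UD lay wholly above those of RANKL in deposited FPKM for the same 6 genes, against 34.1% of all tested genes. The median log2 fold change of the 8 genes was 0.37, and over all tested genes it was 0.005. The background depends on scaling, since 48.0% of the genes called between these groups were higher with TMM and 66.2% with total counts, while 6 members were called higher under both. Without RANKL replicate 1 or RANKL + UD replicate 2, 4 members were called. Only Dhodh passed when a fold change of at least 1.5 was also required.

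**Figure D2:**
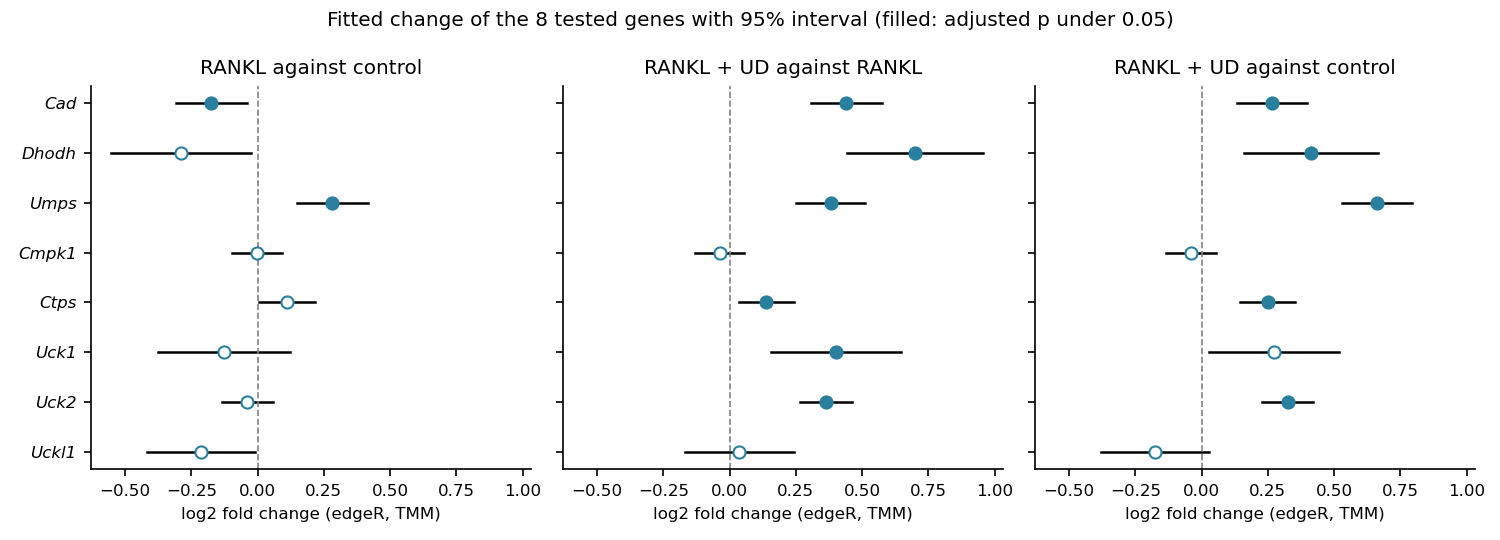
Circles give the fitted log2 fold change of the 8 tested genes in each comparison with its 95% interval, and filled circles passed an adjusted p under 0.05. In RANKL + UD against RANKL 6 intervals lie above 0, while those of Cmpk1 and Uckl1 span 0.

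With RANKL alone, few of these genes passed the test after TMM scaling. In RANKL against control, 1 of the 8 tested genes rose (Umps, where 27.3% of all tested genes rose) and 1 fell (Cad, where 30.2% fell), and the median log2 fold change was -0.08 beside -0.03 over all tested genes. This count depends on how libraries are scaled. With total counts in place of TMM, 1 rose and 4 fell (Cad, Dhodh, Uck2 and Uckl1), in limma on log2(FPKM + 1), which also scales to totals, 1 rose and 5 fell, Cmpk1 being the fifth, and with total counts the share of higher genes among all calls went from 47.5% to 36.9%. In RANKL + UD against control, 5 rose (Cad, Dhodh, Umps, Uck2 and Ctps, where 26.7% of all tested genes rose) and 0 fell, where 27.3% fell. At an unadjusted p under 0.05 in edgeR 6 were higher and 0 lower, and DESeq2 and limma also called 0 lower. RANKL against control and RANKL + UD against RANKL share the RANKL libraries, and the comparison with control shares libraries with both, so none is independent of the others.

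A ratio of 2 genes within a library does not depend on how libraries are scaled. Divided by Cmpk1, the FPKM of Uck2 was 0.596 to 0.635 in control, 0.599 to 0.609 with RANKL and 0.778 to 0.815 with RANKL + UD. For Umps the ratio was 0.131 to 0.142, 0.155 to 0.176 and 0.218 to 0.224 in the same order, and for Cad it was 0.129 to 0.158, 0.120 to 0.136 and 0.170 to 0.183. For each of these genes the RANKL + UD libraries lay above all 6 others, as they did for Ctps (0.428 to 0.461, against at most 0.3997 with RANKL). The balance of Cad to Umps fell with RANKL from 0.980 to 1.17 in control to 0.722 to 0.796, and it was 0.777 to 0.816 with RANKL + UD. These ratios are given without a test and show unequal change of the genes, not which of them moved.

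**Figure D3:**
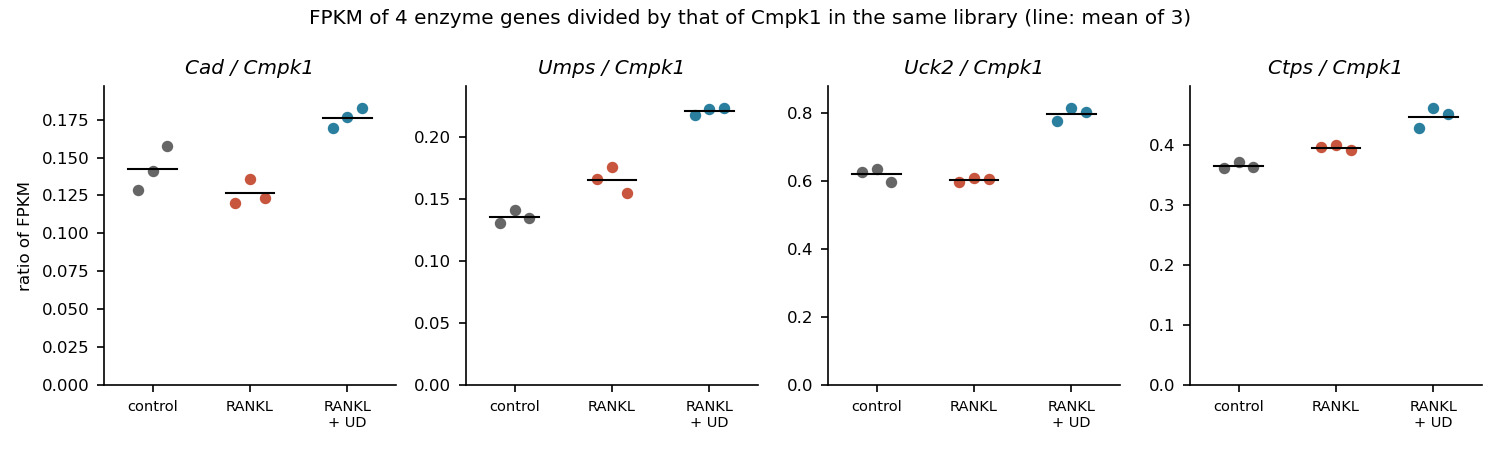
Points give the FPKM of Cad, Umps, Uck2 and Ctps divided by that of Cmpk1 in the same library, and lines give the mean of 3 libraries, with each axis starting at 0. In all 4 panels the RANKL + UD libraries lie above the RANKL and control libraries.

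The rest of the pyrimidine pathway was described with lists of named genes. Besides the 10, the table annotates 35 tested genes to pyrimidine metabolism. In RANKL + UD against RANKL 16 of them rose and 4 fell, with a median log2 fold change of 0.24. Over all tested genes 18.6% rose and 20.2% fell. In RANKL against control 5 rose and 15 fell, with a median of -0.16, where 27.3% and 30.2% of all tested genes did. Only the 10 were left out of these 35, so they can share genes with the lists below, which are not separate evidence. A list of other nucleotide kinases held 8 tested genes, Ctps2 included, of which 4 rose and 0 fell with UD. Among those that rose were Dtymk, which makes dTDP (0.70, adjusted p = 1.36e-07), and Nme1, a nucleoside diphosphate kinase (0.51, adjusted p = 6.26e-06). Nme1 and Nme2 are close paralogs, so the split of reads between them is uncertain. The mitochondrial kinase Cmpk2 fell by 2.11 on the log2 scale between RANKL and control (adjusted p = 1.19e-11) and rose by 0.68 with UD (adjusted p = 0.000694), to a mean FPKM of 2.21 against 5.99 in control.

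Breakdown and transport genes were tested in smaller numbers. Dpys, which hydrolyses dihydropyrimidines, had a mean FPKM of 0.907 ± 0.121 in control, 2.40 ± 0.0781 after RANKL and 1.84 ± 0.0569 after RANKL + UD (SD, n = 3 per group). This was a rise of 1.48 on the log2 scale with RANKL (adjusted p = 7.55e-08) and a log2 fold change of -0.47 with UD (adjusted p = 0.0147). Dpys entered the test only through libraries given RANKL, so the filter favoured a rise over control. The list of breakdown genes and nucleotidases, which also holds Uprt, had 7 tested genes. Of these 7, 1 rose and 1 fell with UD, beside 18.6% and 20.2% of all tested genes. The gene that rose was Nt5c2, a cytosolic nucleotidase (0.22, adjusted p = 0.00549), and the median log2 fold change of the 7 was 0.12. Dpyd, the enzyme that starts uracil breakdown, was listed at 0 in every library, and the uridine phosphorylase paralog Upp2 did not exceed an FPKM of 0.13. Of 3 tested carriers, 1 rose and 1 fell with RANKL, beside 27.3% and 30.2% of all tested genes, and 0 rose and 1 fell with UD. Slc29a1, an equilibrative nucleoside carrier, was the called gene with the largest change among these 3. It had a mean FPKM of 13.4 ± 0.658 in control, 7.80 ± 0.686 after RANKL and 8.07 ± 0.667 after RANKL + UD (SD, n = 3 per group). It fell by 0.69 on the log2 scale with RANKL (adjusted p = 3.66e-07), and its log2 difference with UD was -0.04 (adjusted p = 0.762). The carrier Slc28a2 reached an FPKM of 1 in too few libraries to be tested. Its FPKM was 0.95 to 1.22 in control, 0.21 to 0.33 with RANKL and 0.10 to 0.20 with RANKL + UD. Of 12 tested genes that spend UTP or CTP on nucleotide sugars and lipid precursors, 1 rose and 5 fell with UD, led by Uap1l1 (-0.61, adjusted p = 1.57e-07).

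Genes of the neighbouring nucleotide pathways and of proliferation rose with UD as well. Of 12 deoxypyrimidine supply genes, 9 rose and 2 fell in RANKL + UD against RANKL, with a median log2 fold change of 0.60, led by the ribonucleotide reductase subunit Rrm2 (0.97, adjusted p = 4.09e-10) and the thymidine kinase Tk1 (0.75, adjusted p = 2.55e-08). Of 13 purine de novo genes, 8 rose and 2 fell, with a median of 0.23. Over all tested genes, 18.6% rose and 20.2% fell in this comparison. All 13 proliferation markers rose with UD (median 0.62), and between RANKL and control 12 of them had fallen (median -0.69), where 30.2% of all tested genes fell. Their summed FPKM was 588.0 to 619.2 in control, 377.5 to 381.2 with RANKL and 583.5 to 607.6 with RANKL + UD. This sum moved with the pyrimidine genes between RANKL and RANKL + UD, and its part in their rise was not tested. Between RANKL + UD and control the proliferation sums overlapped, while Cad, Dhodh, Umps, Uck2 and Ctps were higher. In that comparison 3 of the markers were higher and 4 lower, beside 26.7% and 27.3% of all tested genes.

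**Figure D4:**
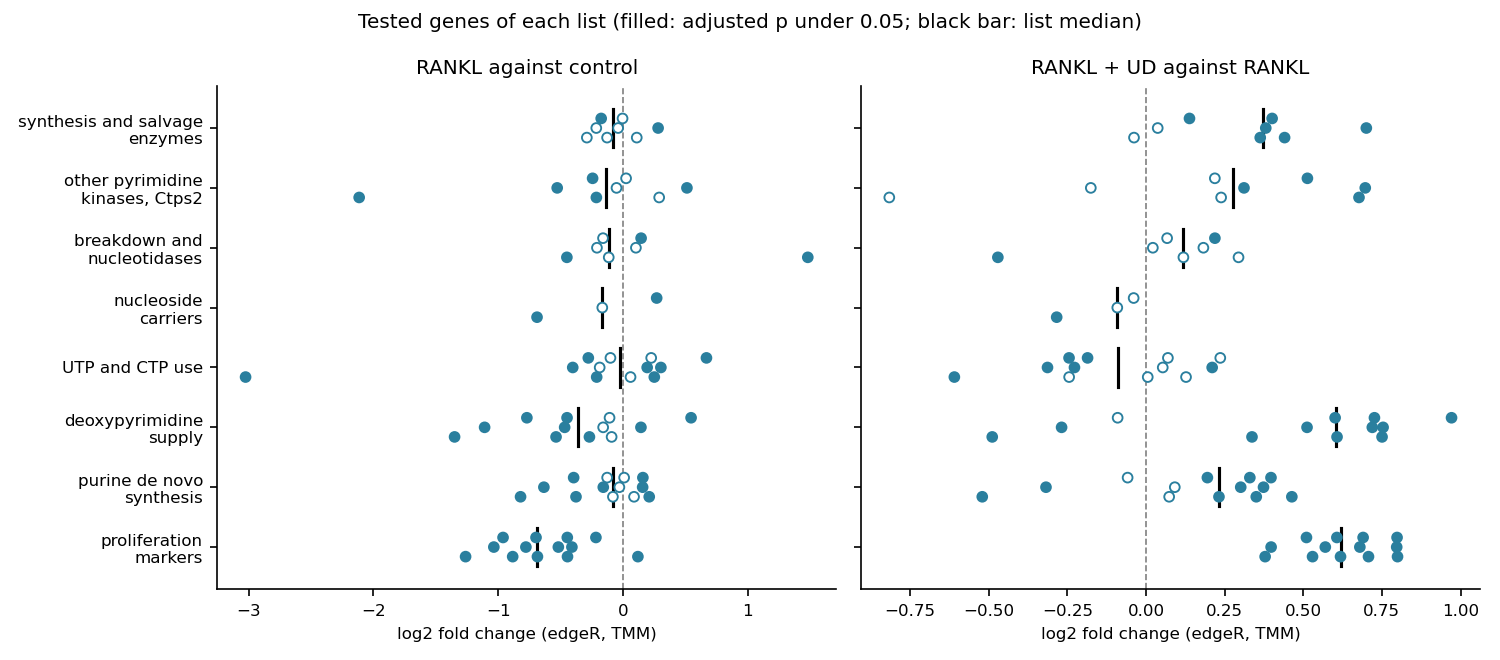
Each circle is a tested gene of a list, placed by its fitted log2 fold change in RANKL against control or RANKL + UD against RANKL, filled where the adjusted p was under 0.05, with a black bar at the list median and a different x axis in each panel. In RANKL + UD against RANKL the medians of the enzymes (0.37), deoxypyrimidine supply (0.60), purine synthesis (0.23) and proliferation markers (0.62) lie above 0, and those of the nucleoside carriers (-0.09) and of UTP and CTP use (-0.09) lie below it.

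The pattern over the 9 libraries was compared by the root mean square difference between log2 CPM values, each gene centred on its own mean. Cad was closest to Uck2 among the tested members (0.112), and Umps and Uckl1 were the farthest apart (0.349). Over all tested genes, the 5 with the smallest difference from Cad were Stip1 (0.0475), Gemin6 (0.0509), Rfc2 (0.0522), Rpa1 (0.0549) and Nolc1 (0.0563), where Cad itself spanned 0.55 on this scale. For Dhodh, which spanned 0.93, they were Donson (0.0908), Rbbp7 (0.094), Rad54l (0.0944), Shmt1 (0.0974) and Mettl18 (0.1001). Of these, Rfc2 and Rpa1 encode DNA replication factors, Rad54l a recombination factor, Stip1 a chaperone adaptor and Nolc1 a nucleolar protein. The other genes named were not classed by function here. The 9 values fall into 3 groups, so the likeness in pattern is a description only.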

How the data were processed

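RNA from RAW264.7 cells was profiled in 9 libraries, 3 per group. Per the labels, libraries were poly(A)-selected and strand-specific. The authors deposited whole-number read counts per gene, without normalization, and FPKM, the count divided by exonic length and library total, which was recomputed within rounding for 100% of values. The aligner, counting tool and strand setting are not given in the sources used here. The submitters' processing notes name mm10, but 0 of the 10 genes lie at their GRCm38 positions in the deposited table, so its gene coordinates are printed as listed, with no build. The columns called Model were read as RANKL, a name the study uses for that group.

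Counts were tested with edgeR 4.0.16 (TMM scaling, quasi-likelihood, all 9 libraries in one fit with group as the only term, Benjamini-Hochberg adjustment) in R 4.3.3 over 11995 genes. Genes were called at an adjusted p under 0.05. DESeq2 1.42.0, which the study names, and limma 3.58.1 on log2(FPKM + 1) or log2(FPKM + 0.1) were alternatives. The other alternatives were RLE factors, total counts, no expression filter, 6 libraries per fit, a replicate block, each library left out in turn, and a fold change of at least 1.5. With 3 libraries per group, the smallest two-sided p of an exact permutation test is 0.1, so none was used for single genes. Within each group, libraries differed beyond sampling noise (chi-square per degree of freedom 2.90 to 8.89), so none were merged. TMM factors were 0.959 to 0.963 with RANKL and 1.01 to 1.03 in the other groups.

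The members and lists were chosen with earlier results of these data known. Genes named from the other lists were taken from the 3 called genes of each list with the largest fold change in RANKL against control or RANKL + UD against RANKL. Acp5, Ctsk and Mmp9 were named as a check of the labels, and the 5 genes nearest in pattern were named for Cad and for the member with the largest change between RANKL + UD and RANKL. Dpyd, Upp2 and Slc28a2 were added after their values were seen. Ratios between members and summed levels were also chosen after the data were seen.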

Additional observations from a re-analysis of the deposited data

How the results depend on the processing

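Over 17 alternatives for each of 24 log2 fold changes, 365 values kept their direction and side of the threshold, 13 lost a call, 20 gained a call and 10 changed sign, of which all concern Cmpk1 or Uckl1 and none was called. In RANKL against control, Cmpk1 was 0.0142 in DESeq2 and with RLE factors, 0.0111 without an expression filter, 0.0175 with only the 6 libraries compared, 0.0066 without control replicate 1 and 0.0252 without RANKL replicate 2, within a range of -0.0271 to 0.0252 when 1 library was left out. In RANKL + UD against RANKL, Cmpk1 was 0.048 with total counts and in limma on log2(FPKM + 1), and 0.0485 in limma on log2(FPKM + 0.1), and Uckl1 was -0.0058 without RANKL replicate 2, within a range of -0.0058 to 0.0833.

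In RANKL against control, the number of members called (2) became 3 with RLE factors, 5 with total counts, 6 in limma with either pseudocount and 1 with only the 6 libraries compared, and the number higher (1) became 2 in DESeq2 and with RLE factors. The number lower (1) became 0 in DESeq2 and with only the 6 libraries compared, 4 with total counts and 5 in limma with either pseudocount. Leaving out 1 library gave 1 to 3 members called, 0 to 2 of them lower. With a fold change of at least 1.5 in addition, the counts became 0 in this comparison, and 1 called and higher in each of the other comparisons. The causes were not tested.

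Same-numbered libraries shared little beyond their group (correlation of deviations -0.019 to 0.098 over 9 pairs, and 6 of 9 libraries correlated best with their own number). The replicate block called 6 members in RANKL + UD against RANKL, 2 in RANKL against control and 6 in RANKL + UD against control, where the unblocked fit called 5 and the block added Uck1 (0.27, adjusted p = 0.0314). Upp1 and Cda, at 2 to 29 counts per library, limit what depth can show.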
